A study of Drosophila melanogaster with 6 samples.

Results

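The small nuclear RNA (snRNA) genes of Drosophila melanogaster were taken as the genes of the deposited count table whose FlyBase identifier carries a symbol starting with snRNA: in the dm6 annotation, which gave 31 of 17753 genes. They comprised 5 U1, 6 U2, 3 U4, 7 U5 and 3 U6 genes, 1 gene each of U7, U11 and U12, and 4 others (U4atac, U6atac, 7SKa and LU). Another annotated member, 7SKb, was not among the rows of the table and was not analysed here. GRO-seq, in which nuclei extend the transcripts they are making with a labelled nucleotide, was used to read nascent RNA of hand-picked stage 5 embryos, when the zygotic genome becomes active. DomKD embryos (genotype t216) were laid by mothers in which a germline-expressed short hairpin, driven by a maternal Gal4 line, targeted domino (dom), which encodes the ATPase that loads the histone variant H2A.Z (His2Av in flies), and Ctrl embryos (genotype t180) came from a control line of the same RNAi collection. Each library pooled many embryos, and the depletion acts through the germline of the mother. There were 3 libraries per group in 2 batches that were not balanced over the groups. Batch A held DomKD A1, DomKD A2 and Ctrl A1, and batch B held DomKD B1, Ctrl B1 and Ctrl B2.

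Libraries held 10660708 to 15790602 counts in DomKD and 12487166 to 24537992 counts in Ctrl, so the Ctrl values rest on more reads. The targeted gene, dom, had 664.8, 690.5 and 965.6 CPM in the DomKD libraries A1, A2 and B1, against 847.7, 811.4 and 707.3 CPM in the Ctrl libraries A1, B1 and B2, and did not pass the test under TMM scaling (log2 fold change 0.01, adjusted p = 0.973, edgeR). It was called lower under the other scalings described below, at -0.47 with total counts (adjusted p = 0.0303) and -1.01 with a list of Zelda targets (adjusted p = 4.836e-05). These values are nascent RNA of the embryo, whereas the hairpin acted in the germline of the mother, so they do not measure the depletion. The study reported less Domino protein and mRNA in DomKD embryos, from immunofluorescence, western blot and qPCR. CPM here are counts relative to the TMM-scaled library size. Of 8 stage 5 blastoderm markers 7 were tested and all 7 were called higher in DomKD under TMM, against 12.1% of all genes tested. The summed level was 14594 to 27243 CPM in DomKD and 3985 to 12226 CPM in Ctrl, and Sry-alpha was at 0. The marker values are given under TMM alone. Total counts or the Zelda list gave a lower median log2 fold change over all genes, as described below. Maternal germline markers summed to 97.9 to 117.5 CPM in DomKD and 98.5 to 101.4 CPM in Ctrl. Follicle cell markers summed to at most 5.33 CPM in DomKD and 3.62 CPM in Ctrl, with 5 of 9 at 0, and yolk and fat body markers to at most 8.36 CPM in DomKD and 10.2 CPM in Ctrl. The part of these marker differences in the snRNA values was not tested, and in bulk embryos fewer nuclei of a type and less RNA per nucleus cannot be told apart.

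The snRNAs are short, stable nuclear RNAs that act in RNA-protein particles. U1, U2, U4, U5 and U6 form the major spliceosome, U11, U12, U4atac and U6atac stand in for their counterparts in the minor spliceosome, U7 acts in histone mRNA 3′ end formation and 7SK holds the elongation kinase P-TEFb in an inactive particle. Most snRNA genes are transcribed by RNA polymerase II and their transcripts are cut at the 3′ end by the Integrator complex, whereas U6, U6atac and 7SK are made by RNA polymerase III. In flies both kinds are driven by the PSEA, a promoter element bound by the SNAP complex, and a TATA box beside it marks the polymerase III genes. LU was given no role or polymerase here.

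These promoters are shown because the members share the PSEA while the TATA box separates the polymerases. Each is the 80 bases before the annotated start, 5′ to 3′ on the strand of the gene, from the RefSeq copy of dm6, with the PSEA core (ATTCNCAA) and any TATA box (TATAAA or TATATA) in capitals. The polymerase III genes come before the polymerase II genes.
snRNA:U6:96Ab: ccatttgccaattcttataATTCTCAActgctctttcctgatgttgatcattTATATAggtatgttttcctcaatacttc
snRNA:U6atac: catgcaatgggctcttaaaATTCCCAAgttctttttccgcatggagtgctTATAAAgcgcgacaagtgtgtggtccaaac
snRNA:7SKa: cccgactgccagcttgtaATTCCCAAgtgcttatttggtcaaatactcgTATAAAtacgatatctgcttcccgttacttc
snRNA:U1:82Eb: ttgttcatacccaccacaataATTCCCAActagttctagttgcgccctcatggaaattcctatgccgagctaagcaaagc
snRNA:U2:34ABa: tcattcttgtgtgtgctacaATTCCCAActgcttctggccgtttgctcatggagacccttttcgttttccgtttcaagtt
snRNA:U2:34ABb: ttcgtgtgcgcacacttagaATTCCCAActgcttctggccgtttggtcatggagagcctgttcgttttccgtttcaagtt
snRNA:U5:34A: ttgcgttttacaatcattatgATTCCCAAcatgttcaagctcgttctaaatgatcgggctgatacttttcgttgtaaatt
snRNA:U5:38ABa: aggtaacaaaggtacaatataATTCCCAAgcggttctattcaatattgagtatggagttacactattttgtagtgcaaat
snRNA:U11: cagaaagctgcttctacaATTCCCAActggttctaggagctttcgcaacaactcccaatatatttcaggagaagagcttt
snRNA:U12: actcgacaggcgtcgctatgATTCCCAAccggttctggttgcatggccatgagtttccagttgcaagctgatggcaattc

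The core was chosen after the promoters had been read, and its matches are descriptions. All 31 genes held it on their own strand within 100 bases of the start, with its leading base between positions -65 and -56, where -1 is the base before the start. Of 17549 genes of the table with a placed start, 1.29% held it on their strand in that window and 2.17% held it on either strand. Between positions -75 and -50 it lay upstream of all 31 snRNA genes, against 52 of 17518 other genes (0.297%). A TATA box on the strand of the gene with its leading base between positions -40 and -15 was present in all 5 polymerase III genes of the table, none of the 25 polymerase II genes and 9.66% of all genes. It began at positions -31 to -28, 23 to 25 bases beyond the PSEA core. A run of 7 T bases, the kind of sequence at which polymerase III stops, lay across the annotated 3′ end of the 3 U6 genes and of U6atac, and a run of 4 at that of 7SKa, while the runs at the polymerase II genes held 0 to 2.

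**Figure D1:**
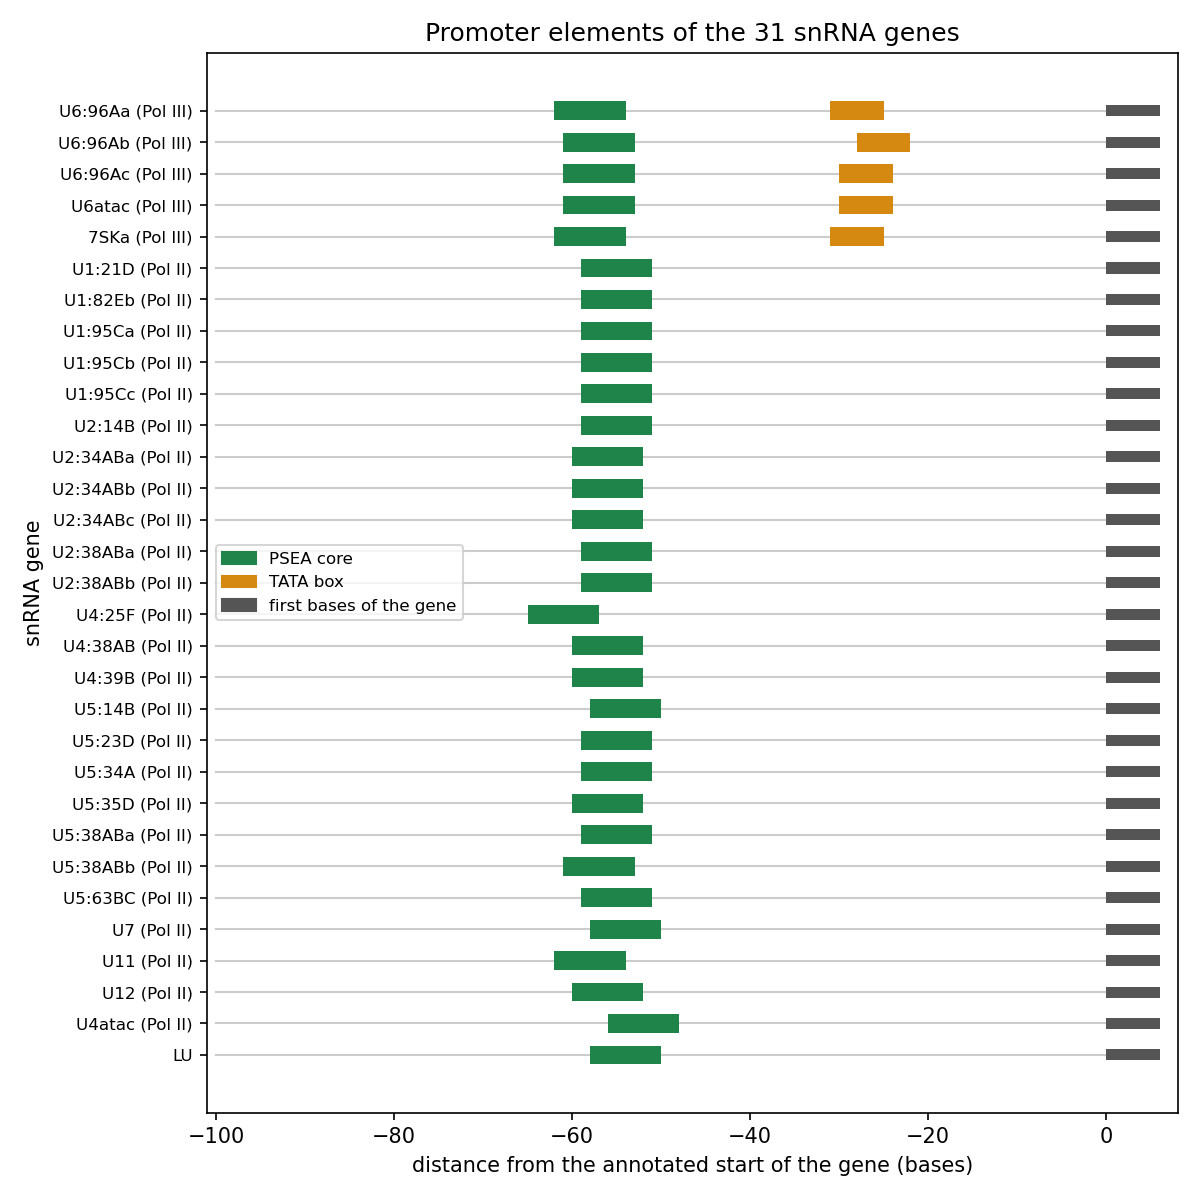
Position of the PSEA core and of the TATA box in the 100 bases before the annotated start of the 31 snRNA genes of the table (x axis in bases, start at 0), the 5 polymerase III genes on top. The core begins between -65 and -56 in every gene and the TATA box is drawn in the 5 polymerase III genes alone.

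The genes of U1, U2 and U6 are near-identical copies within their class, which limits how far a read can be assigned to one of them. The 3 U6 copies are the same to the base. U6atac is shown because it is a single-copy polymerase III gene, with no base in capitals.
snRNA:U6atac: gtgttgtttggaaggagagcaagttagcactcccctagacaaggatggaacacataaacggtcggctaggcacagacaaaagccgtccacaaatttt

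U1:82Eb is shown because it can in part be told from the other U1 genes. Its capitals mark the bases at which it differs from U1:21D, which are C70T and G134T counted from the 5′ end of the RNA gene. The U1:21D, U1:95Ca and U1:95Cb sequences were the same.
snRNA:U1:82Eb: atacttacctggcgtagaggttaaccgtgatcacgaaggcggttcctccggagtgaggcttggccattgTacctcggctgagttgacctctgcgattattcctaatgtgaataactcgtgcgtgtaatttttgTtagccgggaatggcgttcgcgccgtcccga

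No window of 25 or 50 bases was unique in the assembly for U1:21D, U1:95Ca, U1:95Cb, U2:34ABb, U2:34ABc, U2:38ABa and the 3 U6 genes. At U1:82Eb 70.4% of its 50-base windows were unique, and at the 7 U5 genes 21.3% to 51.3%. Of the 25-base windows 35.7% were unique at U1:82Eb and 15.1% to 38.8% at the U5 genes. All windows were unique at U4:25F, U7, U11, U12, U4atac, U6atac and 7SKa. The mapping quality filter of the study removes reads that fit several places equally well, so counts of the repeated copies are uncertain and levels of copies within a class are not ranked here.

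Of the 31 genes 20 had reads and 11 were at 0 in all 6 libraries. All 11 lay wholly inside a longer gene on the same strand, and none of the 20 genes with reads overlapped a gene on its strand. U1:95Cb and U1:95Cc lie in CG34355, U2:38ABb, U4:38AB and U5:38ABb in sick, U4:39B in Atg18b, U4atac in cno, U5:23D and LU in FASN2, U6:96Aa in Esyt2 and U7 in Eip63E. The same held across the table: 1623 of 1624 genes wholly inside another gene on their strand were at 0 (99.9%), against 2661 of 14823 genes with no such overlap (18%). A count of 0 allows up to 3 reads, which is 0.224 to 0.334 CPM in DomKD and 0.105 to 0.213 CPM in Ctrl, but under the default of the counting tool a read that falls in both genes is counted for neither, so the 0 gives no level for these 11 genes. Its part in the zeros was not tested on reads. Thus U7, U4atac and LU had no measurement, U4 was measured through U4:25F alone and U6 through U6:96Ab and U6:96Ac.

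The question of the comparison was whether nascent RNA of the snRNA genes differed in DomKD embryos. All 20 genes with reads had a mean of at least 10 counts and were tested in the fit across 10429 genes, with group and batch in the model. Under TMM scaling 8 of 20 were higher in DomKD and none was lower, whereas over all tested genes 12.1% were called higher and 9.64% lower (21.7% in all). At an unadjusted p under 0.05 there were 11 of 20, against 35.1% of all genes. The 8 were 4 of the 5 U5 genes measured, 1 of 3 U1 genes, 1 of 5 U2 genes, U6atac and 7SKa. The DomKD libraries all lay above the Ctrl libraries for 10 genes and all below for 1, U2:34ABa, against 17.2% and 23.4% of all genes (40.6% in all). The median log2 fold change was 0.75 over the 20 genes, from -0.34 to 1.58, and -0.07 over all genes.

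**Figure D2:**
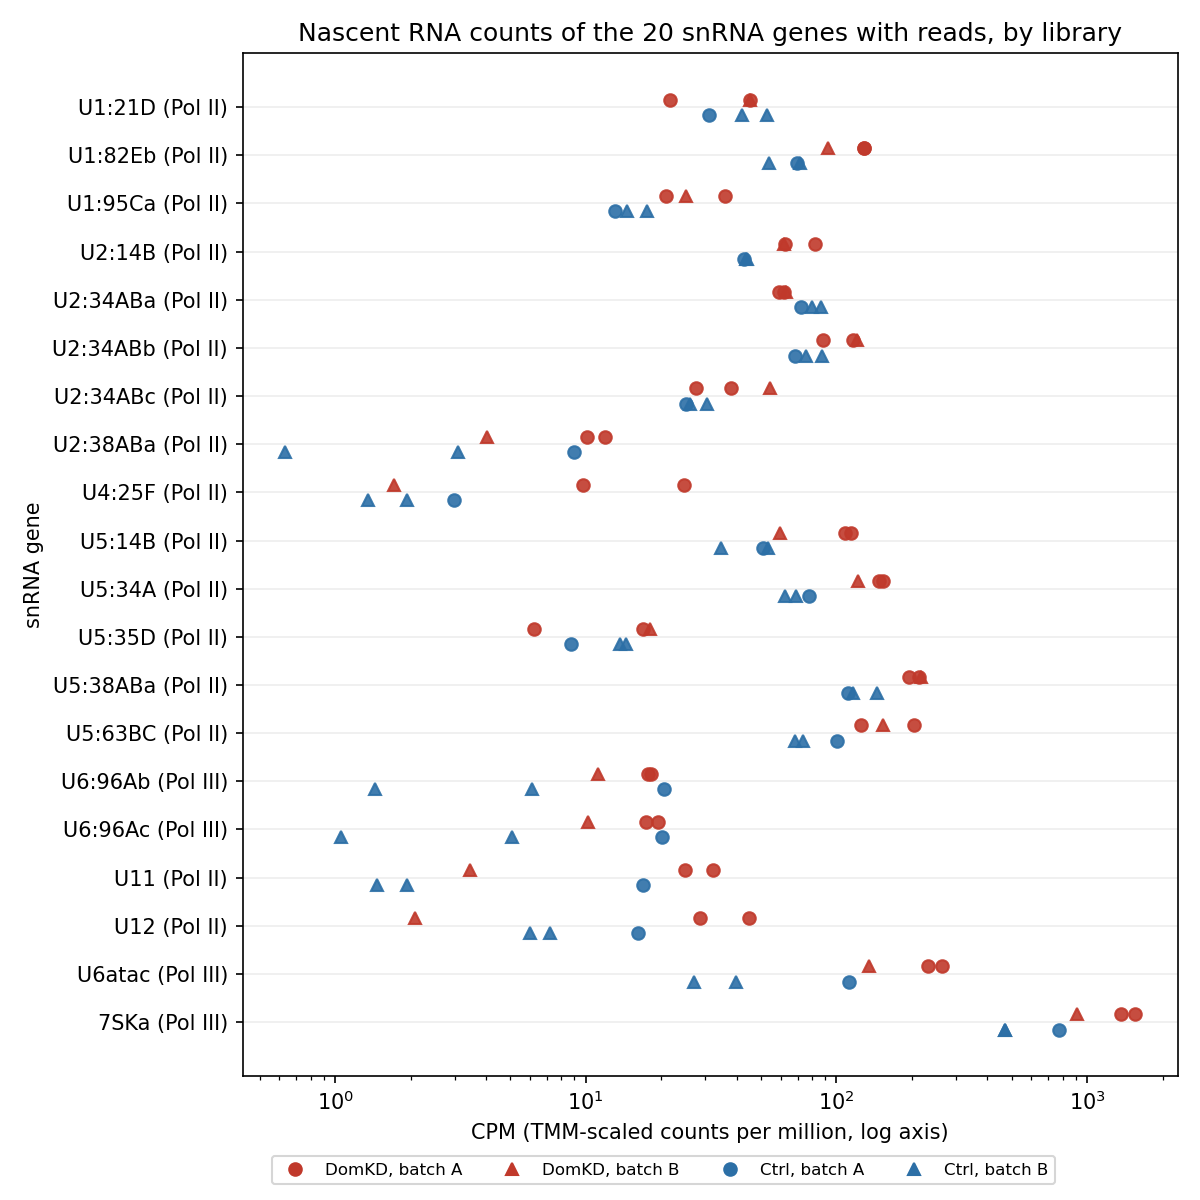
CPM of the 20 snRNA genes with reads in each library (x axis, log scale), with DomKD drawn above Ctrl in each row and batch given by the symbol. The 3 DomKD libraries lie above the 3 Ctrl libraries for 10 genes, among them U5:34A, U5:38ABa, U6atac and 7SKa, while U2:34ABa lies below them.

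The direction depended on what the libraries were scaled to. With total counts the median log2 fold change of all genes was -0.56 and that of the snRNA genes 0.27, with 2 snRNA genes called higher (7SKa and U6atac) and 1 lower (U2:34ABa), against 26.3% of all genes called lower. With size factors from a written list of Zelda target genes, the kind of scaling the study used, the medians were -1.10 for all genes and -0.28 for the snRNA genes, with 1 gene called higher (U6atac) and 2 lower (U1:21D and U2:34ABa), against 46.9% of all genes called lower. Relative to the median of all genes the snRNA median was 0.83 higher under TMM, and it was 0.82 higher for either of the other scalings. A change of scaling shifts the log2 fold change of all genes by nearly the same amount. This gap was therefore bound to stay close to equal and is no check on the direction. The statements below on single genes use TMM, and the value with the Zelda list is given beside each called gene whose sign changes. Counts unscaled, the snRNA genes took 0.236%, 0.256% and 0.179% of the library in the DomKD libraries A1, A2 and B1, against 0.185%, 0.147% and 0.149% in the Ctrl libraries A1, B1 and B2. The groups overlapped in this share, since DomKD B1 lay below Ctrl A1, and within each batch DomKD lay above Ctrl. Without 7SKa the share was 0.123%, 0.124% and 0.102% in these DomKD libraries. It was 0.0981%, 0.0921% and 0.0887% in these Ctrl libraries, without overlap.

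**Figure D3:**
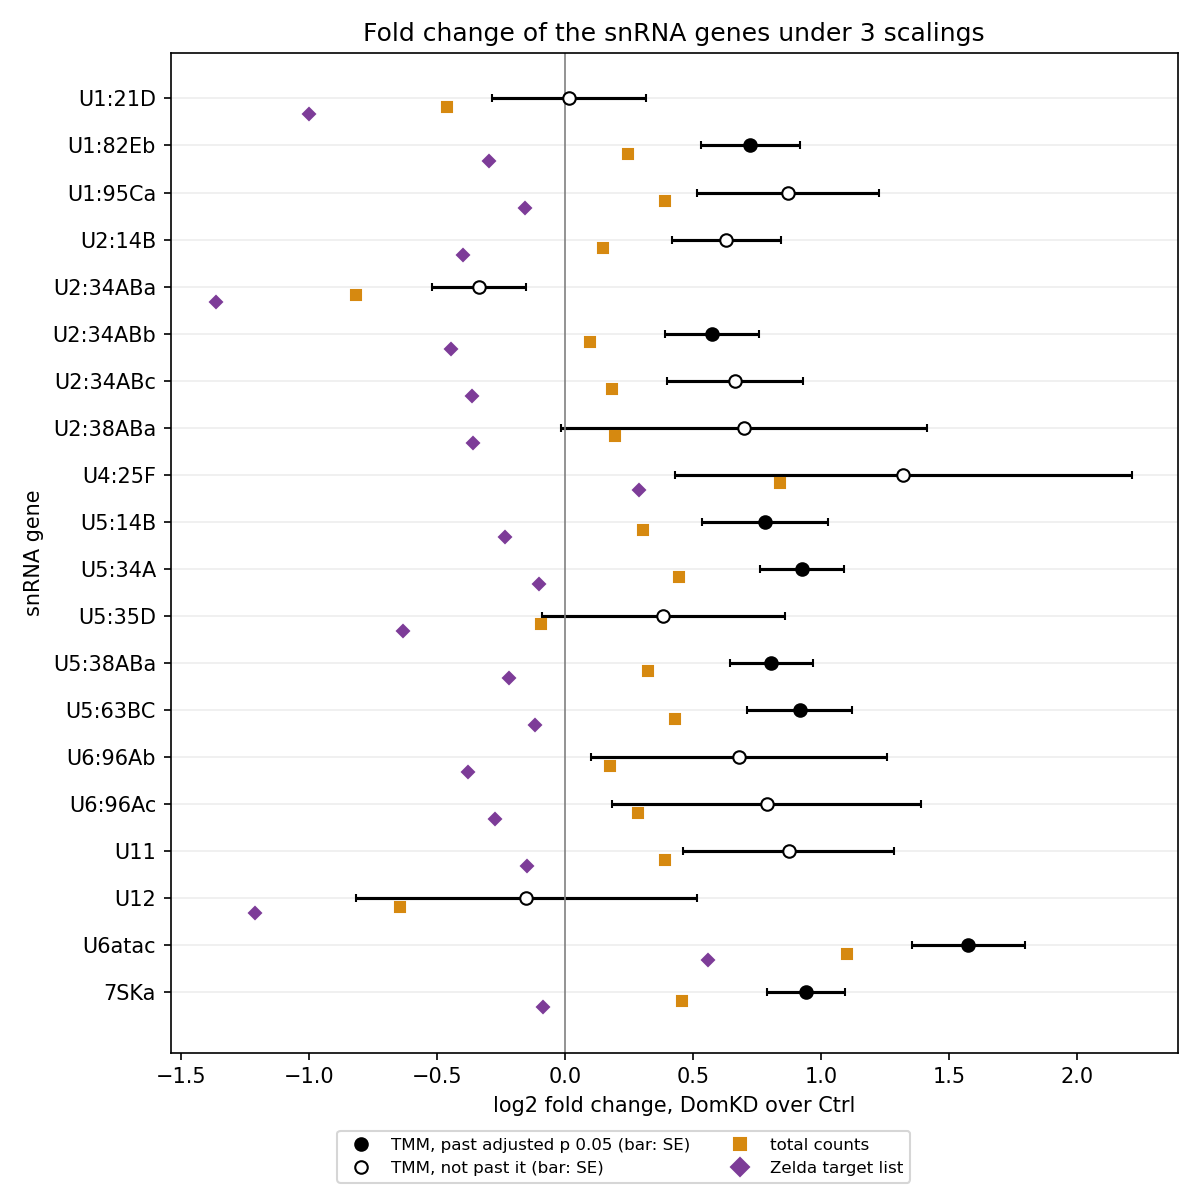
Log2 fold change of DomKD over Ctrl for the 20 snRNA genes under TMM (circles, bars are the SE, filled where adjusted p is under 0.05), under total-count scaling (squares) and under scaling to a Zelda target list (diamonds). Under TMM 8 genes are filled, all to the right of 0, and with the Zelda list all but U6atac and U4:25F lie left of 0.

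The calls also depended on single libraries. Without DomKD B1 batch B holds no DomKD library, and none of the 20 genes passed, nor did more than 10 of all genes tested (0.0959%), although the snRNA median stayed at 0.76. Without Ctrl A1 only 7SKa and U6atac passed, without Ctrl B2 5 genes passed, and without Ctrl B1 or DomKD A2 7 genes passed. Without DomKD A1 9 genes passed. The test of whether the difference between groups depended on batch called no gene, either among the 20 or among all 10429, and at an unadjusted p under 0.05 it gave 1 snRNA gene, U12.

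The U5 RNA holds the exons in place during splicing. Of the 5 U5 genes with reads 4 rose in DomKD under TMM and were negative, without a call, under the Zelda list. U5:34A, at chr2L:13244848-13244974, had 148.3, 154.1 and 121.7 CPM in the DomKD libraries A1, A2 and B1, against 77.5, 69.0 and 62.4 CPM in the Ctrl libraries A1, B1 and B2. All DomKD libraries lay above all Ctrl libraries, and the gene rose by 0.93 ± 0.16 on the log2 scale (SE, adjusted p = 0.00286, edgeR), against -0.10 with the Zelda list. The annotated end of another gene on its strand, asRNA:CR45330, lies 124 bases before U5:34A. Values of asRNA:CR45330 are not given here. U5:38ABa, which lies in sick on the opposite strand at chr2L:19811948-19812074, had 212.6, 195.6 and 217.6 CPM in DomKD and 111.0, 144.8 and 116.9 CPM in Ctrl. It rose by 0.81 ± 0.16 (adjusted p = 0.00527), against -0.22 with the Zelda list. U5:63BC, at chr3L:3090801-3090923, had 204.1, 125.9 and 153.5 CPM in DomKD and 100.1, 68.6 and 73.4 CPM in Ctrl, without overlap. It rose by 0.92 ± 0.20 (adjusted p = 0.00869), against -0.12 with the Zelda list. U5:14B had 107.9, 114.4 and 59.7 CPM in DomKD and 50.8, 53.5 and 34.7 CPM in Ctrl. Its DomKD B1 value was close to the highest Ctrl value, and it rose by 0.78 ± 0.25 (adjusted p = 0.0419), against -0.23 with the Zelda list.

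The fifth U5 gene measured, U5:35D, had 6.24, 17.0 and 18.1 CPM in DomKD and 8.72, 14.5 and 13.7 CPM in Ctrl. The groups overlapped and it did not pass (0.39 ± 0.48, adjusted p = 0.616). Summed over the 5 genes with reads, which does not depend on how counted reads are divided among these 5 but leaves out the 2 copies at 0 and reads removed by the mapping filter, U5 had 618.9 ± 55.3 CPM in DomKD and 333.2 ± 27.9 CPM in Ctrl (SD, n = 3 each). On the log2 scale the summed level was higher in DomKD by 0.88 in batch A and by 0.81 in batch B. Without Ctrl A1 the adjusted p was 0.0590 for U5:34A, 0.0994 for U5:38ABa, 0.0791 for U5:63BC and 0.488 for U5:14B. Without DomKD B1 these were 0.0685, 0.0796, 0.219 and 0.0994. For U5:14B they were also 0.0779 without DomKD A2 and 0.150 without Ctrl B2.

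U1, which recognises the 5′ splice site, had 3 measured genes. U1:82Eb, at chr3R:4947933-4948096, had 128.9, 129.2 and 92.9 CPM in the DomKD libraries A1, A2 and B1, against 69.9, 71.8 and 53.7 CPM in the Ctrl libraries A1, B1 and B2. The groups did not overlap and it rose by 0.72 ± 0.19 (adjusted p = 0.0204), against -0.30 with the Zelda list. U1:95Ca had 35.8, 20.9 and 25.1 CPM in DomKD and 13.1, 17.5 and 14.6 CPM in Ctrl. The groups did not overlap, but the difference of 0.87 ± 0.35 did not pass (adjusted p = 0.102). U1:21D had 21.7, 45.2 and 45.2 CPM in DomKD and 31.1, 53.0 and 42.1 CPM in Ctrl, which overlapped (0.02 ± 0.30, adjusted p = 0.979). U1:95Ca and U1:21D are the same sequence, so reads inside them cannot be told apart. The class summed to 181.6 ± 16.6 CPM in DomKD and 122.3 ± 17.5 CPM in Ctrl (SD, n = 3 each). For U1:82Eb the adjusted p was 0.105 without DomKD B1, 0.257 without Ctrl A1 and 0.0876 without Ctrl B2.

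U2, which pairs with the branch point, had 5 measured genes, and they did not all differ in the same direction. U2:34ABb had 88.8, 116.9 and 121.2 CPM in DomKD and 68.5, 88.0 and 75.8 CPM in Ctrl. The lowest DomKD value was just above the highest Ctrl value, and it rose by 0.58 ± 0.18 (adjusted p = 0.0453), against -0.45 with the Zelda list. The call was lost without any 1 library other than DomKD A1, with adjusted p of 0.0912 without DomKD A2, 0.235 without DomKD B1, 0.268 without Ctrl A1, 0.0880 without Ctrl B1 and 0.149 without Ctrl B2. U2:14B had 62.3, 82.4 and 61.9 CPM in DomKD and 42.6, 43.4 and 44.2 CPM in Ctrl. Its groups did not overlap, and it lay just outside the threshold (0.63 ± 0.21, adjusted p = 0.0553). U2:34ABc had 37.9, 27.5 and 54.4 CPM in DomKD and 25.1, 30.6 and 26.0 CPM in Ctrl (0.67 ± 0.26, adjusted p = 0.0954). U2:34ABb and U2:34ABc are the same sequence and held no unique window, so reads inside them cannot be told apart. How the 8902 reads counted for U2:34ABb passed the mapping filter was not examined, so its call is not assigned to that copy alone. U2:38ABa was low, with 10.2, 11.99 and 4.04 CPM in DomKD and 9.01, 0.632 and 3.09 CPM in Ctrl (0.70 ± 0.72, adjusted p = 0.535).

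U2:34ABa was the exception. It had 59.2, 61.84 and 63.03 CPM in the DomKD libraries A1, A2 and B1, against 72.5, 87.2 and 80.2 CPM in the Ctrl libraries A1, B1 and B2. All DomKD libraries lay below all Ctrl libraries, yet the difference did not pass under TMM (-0.34 ± 0.18, adjusted p = 0.220), while it passed at -0.82 with total counts (adjusted p = 0.00831) and at -1.36 under Zelda scaling (adjusted p = 4.081e-04). Its RNA gene differs from that of U2:34ABb at A129G, 1 base counted from the 5′ end. Of its 50-base windows 21.7% were unique, and of its 25-base windows 3.6%. Its locus is shared with kek4, a gene on the same strand whose annotated end lies 219 bases before the start of U2:34ABa and which encodes a transmembrane protein of the Kekkon family. kek4 had 32.6, 20.7 and 21.2 CPM in DomKD and 0.567, 0.843 and 0.387 CPM in Ctrl, from 186 to 292 counts in DomKD and 8 to 24 counts in Ctrl. It was 5.28 ± 0.55 higher on the log2 scale (adjusted p = 4.461e-04, lost without DomKD B1 with adjusted p = 0.0552). The U2 class summed to 287.8 ± 25.6 CPM in DomKD and 232.3 ± 16.3 CPM in Ctrl (SD, n = 3 each).

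U4, the partner of U6 before the spliceosome is activated, was seen only at U4:25F, whose sequence was 73.8% the same as the other U4 genes. It had 24.6, 9.77 and 1.72 CPM in DomKD and 2.98, 1.93 and 1.35 CPM in Ctrl, which overlapped. The spread within DomKD was large and the difference did not pass (1.32 ± 0.89, adjusted p = 0.329). In batch A it was 2.34 higher in DomKD on the log2 scale and in batch B 0.08 higher.

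U6 forms the catalytic core of the spliceosome with U2. U6:96Ab had 18.2, 17.7 and 11.2 CPM in the DomKD libraries A1, A2 and B1, against 20.5, 1.44 and 6.11 CPM in the Ctrl libraries A1, B1 and B2. U6:96Ac had 19.4, 17.3 and 10.2 CPM in DomKD and 20.1, 1.05 and 5.10 CPM in Ctrl. In both genes Ctrl A1 was the highest library and Ctrl B1 the lowest, so the groups overlapped and neither gene passed (0.68 ± 0.58, adjusted p = 0.447, and 0.79 ± 0.60, adjusted p = 0.394). The copies lie in tandem on 3R behind Esyt2, whose end is 143 bases before U6:96Ab. Esyt2 had 79.4, 53.9 and 39.4 CPM in DomKD and 26.5, 20.7 and 14.2 CPM in Ctrl and was higher in DomKD (1.25 ± 0.27, adjusted p = 0.00748, lost without DomKD B1 at 0.116 or without Ctrl A1). Esyt2 was not called with total counts (0.78, adjusted p = 0.0549, edgeR) or with the Zelda list (0.23, adjusted p = 0.625).

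Set against the polymerase II snRNA genes, U6 had no settled direction. The summed polymerase II genes had 1145.7 ± 89.6 CPM in DomKD and 706.4 ± 51.0 CPM in Ctrl, without overlap, and the summed U6 genes 31.3 ± 8.65 CPM in DomKD and 18.11 ± 19.98 CPM in Ctrl, with overlap (SD, n = 3 each). The log2 ratio of U6 to the polymerase II genes was -5.02, -5.07 and -5.60 in DomKD and -4.14, -8.23 and -5.86 in Ctrl. All 3 DomKD ratios lay inside the range of Ctrl. The mean ratio was 0.85 higher in DomKD over all libraries, -0.90 in batch A alone and 1.44 in batch B alone, and leaving out single libraries gave -0.23 (without Ctrl B1) to 1.81 (without Ctrl A1). No test was made of this ratio.

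**Figure D4:**
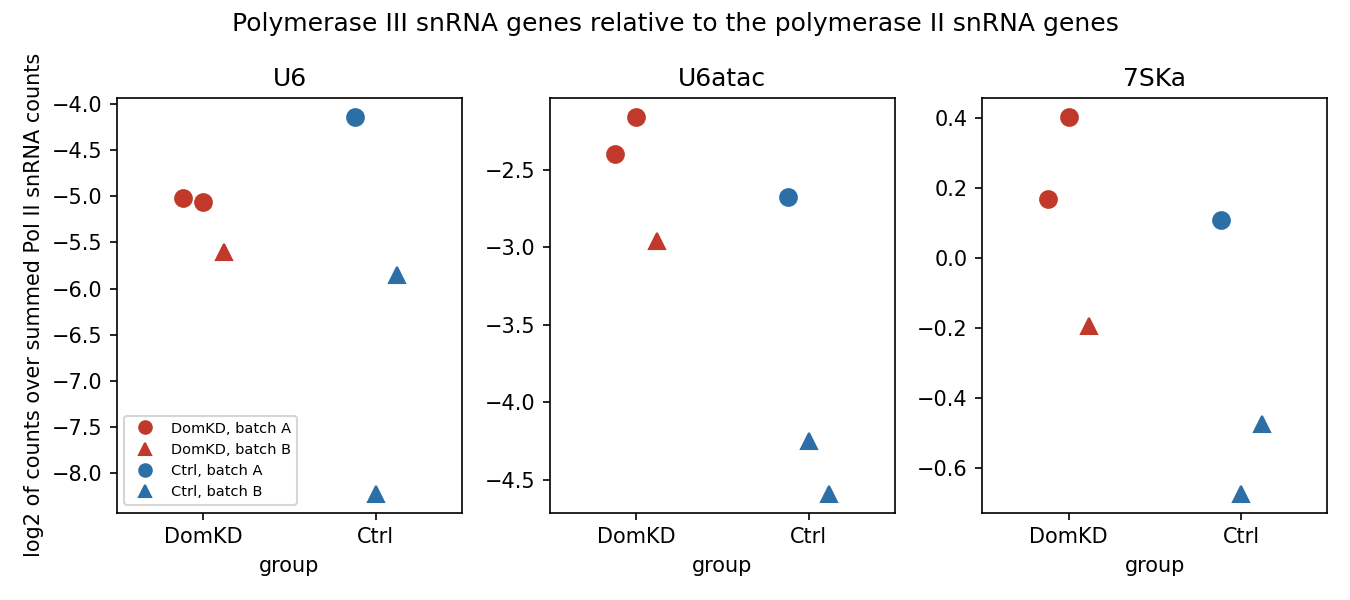
Log2 ratio of the counts of U6 (2 genes summed), U6atac and 7SKa to the summed polymerase II snRNA genes in each library (y axis, separate scale per panel), with DomKD left of Ctrl and batch given by the symbol. The U6 ratios of DomKD lie within the Ctrl range, and for U6atac and 7SKa the Ctrl A1 value lies above that of DomKD B1.

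U6atac and 7SKa, the other polymerase III genes, both rose under TMM. U6atac, at chr2L:8389724-8389820, had 231.4, 262.9 and 134.5 CPM in the DomKD libraries A1, A2 and B1, against 112.0, 39.6 and 27.1 CPM in the Ctrl libraries A1, B1 and B2. The groups did not overlap, and Ctrl A1 was far above the other Ctrl libraries. U6atac rose by 1.58 ± 0.22 (adjusted p = 0.00102), the largest difference of the 20 genes under TMM, and it was positive under all 16 alternatives, 0.56 with the Zelda list and up to 1.95, passing the threshold in 14. The exceptions were without DomKD B1 (1.14, adjusted p = 0.0784) and with the replicate number as a block (1.92, adjusted p = 0.0685). Relative to the polymerase II genes its log2 ratio was -2.40, -2.16 and -2.96 in DomKD and -2.68, -4.25 and -4.59 in Ctrl.

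7SKa, at chr3R on the minus strand, held 37.2% to 51.4% of all snRNA reads in each library. It had 1370.6, 1552.9 and 913.9 CPM in DomKD and 771.4, 471.0 and 468.5 CPM in Ctrl, without overlap, and rose by 0.94 ± 0.15 (adjusted p = 0.00179), against -0.086 with the Zelda list and with an adjusted p of 0.0652 without DomKD B1. The difference was close to equal in the batches, 0.92 in batch A and 0.96 in batch B on the log2 scale. Its log2 ratio to the polymerase II genes was 0.17, 0.40 and -0.19 in DomKD and 0.11, -0.68 and -0.48 in Ctrl, which overlapped. Per kilobase of gene, 7SKa had 2880.9 ± 741.3 CPM in DomKD and 1284.5 ± 392.3 CPM in Ctrl, U6atac 2160.7 ± 689.9 CPM in DomKD and 613.8 ± 472.6 CPM in Ctrl, and U5:38ABa 1642.8 ± 90.8 CPM in DomKD and 978.1 ± 142.3 CPM in Ctrl (SD, n = 3 each). 7SKa and U6atac stood highest per length in DomKD. U5:38ABa is not ranked against the other U5 copies, since only 51.3% of its 50-base windows were unique. Among these 3 genes no neighbours in either group differed by more than the sum of their SDs.

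U11 and U12, which take the places of U1 and U2 in the minor spliceosome, were separated by batch and not by group. U11, which lies in Fie on the opposite strand, had 24.9, 32.2 and 3.44 CPM in the DomKD libraries A1, A2 and B1, against 17.0, 1.48 and 1.93 CPM in the Ctrl libraries A1, B1 and B2. U12, which lies in Baldspot on the opposite strand, had 44.7, 28.5 and 2.09 CPM in DomKD and 16.1, 5.97 and 7.23 CPM in Ctrl. In both genes all batch A libraries lay above all batch B libraries, and the groups overlapped. The group difference was 0.87 ± 0.41 for U11 (adjusted p = 0.155) and -0.15 ± 0.67 for U12 (adjusted p = 0.901). The log2 difference of U12 was 1.14 in batch A and -1.60 in batch B, and its test of a batch-dependent difference gave an unadjusted p of 0.00831 in edgeR and an adjusted p of 0.815.

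The batch term of the fit, examined because of these values, called 4 of the 20 genes lower in batch B and none higher, against 2.64% and 1.44% of all genes (4.08% in all). They were U11 (-3.18 ± 0.43, adjusted p = 0.00275), U12 (-2.63 ± 0.66, adjusted p = 0.0492), U6atac (-1.31 ± 0.22, adjusted p = 0.00772) and 7SKa (-0.70 ± 0.15, adjusted p = 0.0283), all in log2 of batch B over batch A. For 6 genes the batch B libraries all lay below the batch A libraries, namely U2:38ABa, U4:25F, U6:96Ab, U6:96Ac, U11 and U12, against 9.67% of all genes, and for none did they all lie above, against 9.9% of all genes (19.6% in all). U6:96Ab and U6:96Ac are the same sequence without a unique window, so they cannot be taken as separate measurements. The median batch difference was -0.31 over the 20 genes and 0.05 over all genes. In a fit without the batch term the group difference of U12 was 1.36.

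**Figure D5:**
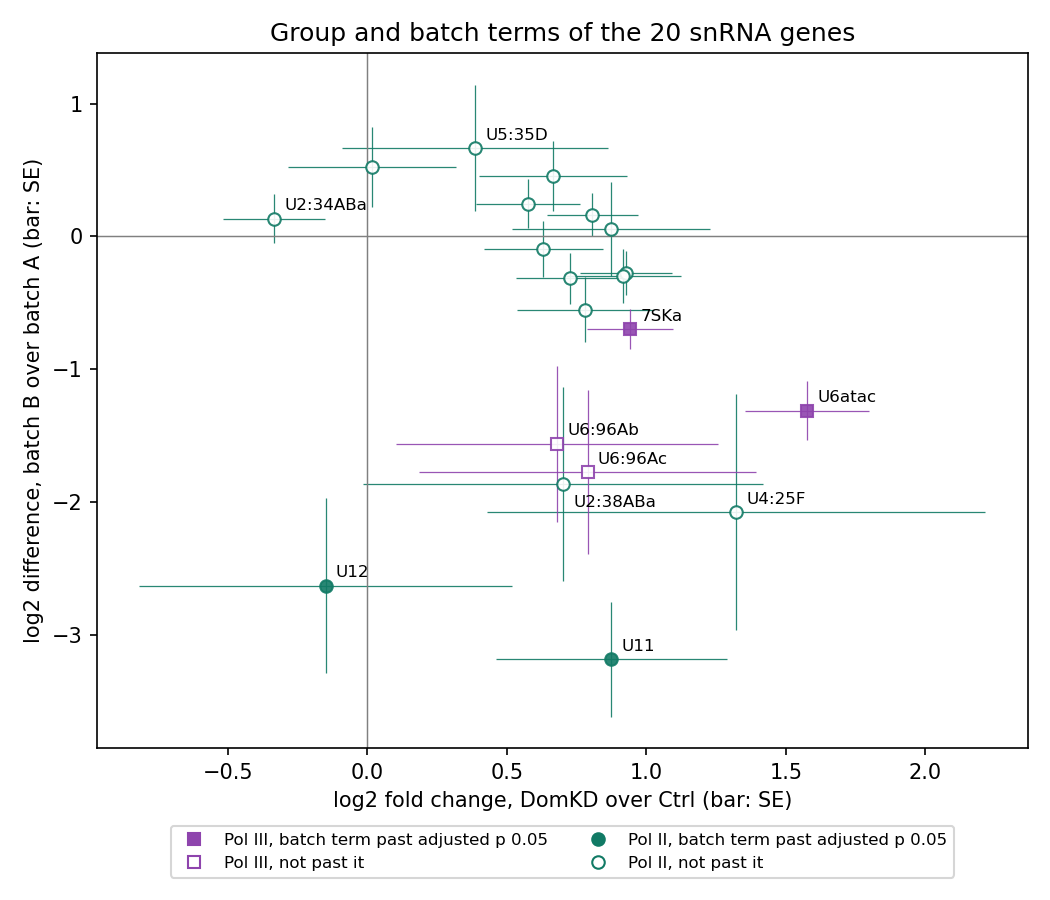
Group term (x axis, log2 fold change of DomKD over Ctrl) and batch term (y axis, log2 difference of batch B over batch A) of the 20 snRNA genes under TMM, with bars for the SE, squares for polymerase III genes and filled symbols where the batch term has an adjusted p under 0.05. The 4 filled genes, U11, U12, U6atac and 7SKa, all lie below 0 on the y axis.

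The RNase MRP and 7SL RNAs, which are made by polymerase III, are given beside the members, together with RNase P RNA. No polymerase was assigned to RNase P RNA here. RNase MRP RNA, which acts in ribosomal RNA processing, had 845.1, 707.1 and 295.4 CPM in DomKD and 571.6, 168.3 and 148.7 CPM in Ctrl. It was higher in DomKD by 0.67 ± 0.17 (adjusted p = 0.0147), lost without DomKD B1 and without Ctrl A1 (up to 0.248). Its groups overlapped and its batch difference was larger (-1.62, adjusted p = 5.058e-04). With the Zelda list it was called lower in DomKD (-0.36, adjusted p = 0.0445, edgeR). The 7SL RNA genes, whose RNA is part of the signal recognition particle, did not pass (CR42652, 1.29 ± 0.67, adjusted p = 0.200, and CR32864, 1.35 ± 0.75, adjusted p = 0.226), with 7.63 to 12.5 CPM in DomKD and 1.02 to 6.17 CPM in Ctrl for CR42652. RNase P RNA lies inside another gene on its strand and was at 0 in all libraries.

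Genes that act in making, assembling or using snRNAs were taken from lists. Of 98 listed genes 76 were found in the table and 70 were tested, of which 7 were lower and 4 higher in DomKD, against 9.64% and 12.1% of all genes, with a median log2 fold change of -0.39 against -0.07 for all genes. All 11 calls were lost without DomKD B1, and the count was 3 without Ctrl A1, 7 without Ctrl B1 and 20 without DomKD A1. Among 6 tested factors of the snRNA promoter, Pbp95, a subunit of the SNAP complex that binds the PSEA, was lower, with 24.53, 20.43 and 22.58 CPM in DomKD and 37.9, 55.4 and 55.5 CPM in Ctrl (-1.03 ± 0.26, adjusted p = 0.0157). Of 11 polymerase III subunits tested 3 were lower. Polr3F had 0, 0.888 and 2.84 CPM in DomKD and 12.3, 22.0 and 22.1 CPM in Ctrl (-3.75 ± 0.79, adjusted p = 0.00650) and Polr3I was -1.82 ± 0.46 (adjusted p = 0.0151).

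Of 13 Integrator subunits tested, IntS10 was lower (-2.01 ± 0.52, adjusted p = 0.0171), while IntS2 (0.81 ± 0.17, adjusted p = 0.00677) and IntS6 (0.82 ± 0.17, adjusted p = 0.00576, with overlapping groups) were higher. With the Zelda list IntS2 was -0.22 and IntS6 was -0.21. Among 5 genes of the 7SK particle and P-TEFb, CycT, the cyclin of P-TEFb, was higher (1.24 ± 0.19, adjusted p = 0.00143). It had 2174.6, 2090.9 and 2014.8 CPM in DomKD and 991.0, 936.4 and 624.9 CPM in Ctrl. With the Zelda list CycT was not called (0.22, adjusted p = 0.151, edgeR). The gene bin3, which caps 7SK, was not called under TMM (0.48 ± 0.16, adjusted p = 0.0521). With the Zelda list bin3 was called lower (-0.54, adjusted p = 0.00136, edgeR). Gem3 of the SMN complex, which loads the Sm ring on snRNAs, was lower (-0.77 ± 0.19, adjusted p = 0.0138), as was Cbp80 of the cap-binding complex (-1.12 ± 0.25, adjusted p = 0.00848). Of 18 snRNP proteins tested, snRNP-U1-70K was higher (0.65 ± 0.15, adjusted p = 0.0115), against -0.38 with the Zelda list. None of 5 Sm and 2 LSm proteins passed. With the Zelda list 56 of the 70 were called lower and none higher, against 46.9% of all genes called lower.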

How the data were processed

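The authors deposited a table of raw counts, not normalized, with a whole number of reads for each gene in 6 GRO-seq libraries. Per the study's methods, adapters were trimmed with Cutadapt 2.5, random tetramers were taken off with UMI-tools 1.0, single-end reads were aligned to dm6 with Bowtie2 in local mode, and featureCounts was run strand by strand on alignments of sufficient mapping quality, from which duplicates had not been removed. The floors of up to 3 reads treat reads as independent, which duplicates need not be, so these floors may be too low. Gene positions came from Ensembl release 115. Of 17753 genes 17626 were matched by identifier and 127 were not, 99.88% of 16237 annotated start codons read ATG, and the deposited length of all 31 snRNA genes equalled the annotated one. Sequences came from the RefSeq copy of dm6.

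Genes that averaged 10 counts or more were tested with the quasi-likelihood test of edgeR 4.0.16 in R 4.3.3 (robust, two-sided, batch and group in the model, TMM scaling), with Benjamini-Hochberg adjustment over all genes tested and a threshold of 0.05. Standard errors were derived from the F statistic. Per-gene differences within a batch are of log2 CPM with a prior count of 2, and class sums of log2 after 0.5 counts were added. Class sums, ratios and medians over genes were not tested. Deviations from the group means of same-numbered libraries correlated at -0.36 to 0.24. They were above 0 for same-numbered libraries of 1 batch (0.20 and 0.24) and for other-numbered libraries of 1 batch (0.16 and 0.24), and below 0 across batches, so the numbers were not taken as pairs. The labels do not say how the embryos of a library were divided, and the study calls the libraries biological replicates. The fit was tested on simulated data. The snRNA genes were chosen by symbol, and the pathway lists were written from general knowledge. The named genes are all snRNA genes, of each list at most 3 past the threshold per direction by adjusted p, the other polymerase III RNAs, and neighbours on which a value turns. Members and lists were chosen with earlier results of these data known. The alternatives were other scalings (RLE, upper quartile, total counts, protein-coding genes, and 58 Zelda targets found of 61 listed), other count filters, no batch term, a replicate block, DESeq2 1.42.0 and each library left out. The batch term was examined after its values had been seen. Values of 1 gene of the lists and some sequences are not reported here.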

Additional observations from a re-analysis of the deposited data

How the results depend on the processing

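The count of 8 snRNA genes past the threshold was 7 to 9 with RLE, upper quartile and protein-coding scaling, other count filters, no batch term and DESeq2, was 3 both with total counts and under Zelda scaling, and ranged from 0 to 9 when single libraries were left out. The median log2 fold change of 0.75 was 0.27 with total counts, -0.28 with the Zelda list and 0.63 to 0.81 without single libraries. When the replicate block replaced the batch term, 4 snRNA genes and 7 pathway genes passed. The 11 pathway genes became 30 with total counts, 56 with the Zelda list and 0 to 20 without single libraries. The log2 ratio of U6 to the polymerase II genes, 0.85, was -0.90 in batch A alone and -0.23 to 1.81 without single libraries.

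Among the 320 values of single genes under the 16 alternatives, 30 changed sign. With the Zelda list the log2 fold change was -0.999 for U1:21D, -0.30 for U1:82Eb, -0.16 for U1:95Ca, -0.40 for U2:14B, -0.45 for U2:34ABb, -0.36 for U2:34ABc, -0.36 for U2:38ABa, -0.23 for U5:14B, -0.10 for U5:34A, -0.63 for U5:35D, -0.22 for U5:38ABa, -0.12 for U5:63BC, -0.38 for U6:96Ab, -0.27 for U6:96Ac, -0.15 for U11 and -0.086 for 7SKa. With this scaling the median log2 fold change of all genes was -1.10, against -0.07 under TMM. Which of the scalings is closer to the amount of RNA per embryo was not tested. U1:21D, at 0.02, was -0.46 with total counts, -0.0016 without a count filter, -0.17 without batch, -0.18 with the replicate block, -0.25 without DomKD A2, -0.13 without Ctrl A1 and -0.03 without Ctrl B2, with a range of -0.25 to 0.19 over single libraries left out. U5:35D was -0.093 with total counts. U12 was 1.36 without batch, 1.38 with the replicate block, 1.19 without DomKD B1 and 0.04 without Ctrl B2, with a range of -1.71 to 1.19 over single libraries left out. Without DomKD B1 U6:96Ab was -0.19 and U6:96Ac -0.13, with upper ends of 1.51 and 1.67 without Ctrl A1. The causes of these were not tested. The low counts of U4:25F, U11, U12, U2:38ABa and U6 limit those genes, with standard errors of 0.41 to 0.89.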
